A study of Mus musculus with 12 samples.

Results

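The 9 genes described here encode the cyclins and kinases that drive a cell through the G1 phase of its cycle: the D-type cyclins Ccnd1, Ccnd2 and Ccnd3, their kinases Cdk4 and Cdk6, the E-type cyclins Ccne1 and Ccne2, their kinase Cdk2, and Cdc25a, the phosphatase that activates Cdk2. They were taken by symbol from a table of 36229 Ensembl genes, and all 9 had a row and passed the filter on low values, a mean of at least 10, in every fit. The cells were mouse embryonic fibroblasts (MEFs) of the C57BL/6 strain that were transduced with an adenovirus carrying MyoD, a transcription factor that turns fibroblasts into muscle cells. Every group was exposed to the virus for 24 h and kept in fresh medium for another 72 h, both with 10 µg/ml insulin and horse serum at 2%. Mixed cultures were wild type (WT), Kdm5a-/- (Kdm5a KO), Rb1-/- (Rb1 KO) or Kdm5a-/-;Rb1-/- (DKO), and their RNA was depleted of ribosomal RNA. In the purified groups, WT and DKO, myotubes had been separated from such cultures by size under gravity and left for 24 h before extraction, and their RNA was selected with oligo(dT). Each of the 6 groups had 2 libraries. The labels do not say whether the libraries of a group came from separate embryos or cultures, so the p-values measure only the spread between these libraries. The mixed cultures also hold cells that did not become myotubes, so fewer cells of a type and less RNA per cell cannot be told apart.

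The retinoblastoma protein, encoded by Rb1, binds E2F transcription factors and holds back the genes they drive. Cyclin D with Cdk4 or Cdk6, and then cyclin E with Cdk2, phosphorylate it and release E2F, and the E-type cyclins, Cdk2 and Cdc25a are themselves known E2F targets. Cells that become muscle leave the cycle for good, and Ccnd3, unlike the other D-type cyclins, is known to accumulate in differentiating muscle. Kdm5a is a histone demethylase that removes methyl groups from lysine 4 of histone H3 and was found as a partner of the retinoblastoma protein.

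The promoters of 4 members are printed because these genes show 2 of the patterns found below: among the 4 mixed groups, Ccne1, Cdk2 and Cdc25a were highest in the DKO and Cdk4 in the Rb1 KO. They are the 250 bases before the annotated start, 5′ to 3′ on the strand of the gene, from RefSeq on build GRCm38.p6. Of the 9 members, 6 matched the promoter table. Capitals mark the letters TTTCCCGC, TTTGGCGC, TTTCGCGC or TTTGCCGC, forms of the E2F site, or CACGTG, the E-box that Myc family proteins bind, on either strand. The windows are chr7:38107491-38107740 for Ccne1 and chr10:128705052-128705301 for Cdk2, both on the minus strand, and chr9:109875329-109875578 for Cdc25a and chr10:127063285-127063534 for Cdk4, both on the plus strand.
Ccne1: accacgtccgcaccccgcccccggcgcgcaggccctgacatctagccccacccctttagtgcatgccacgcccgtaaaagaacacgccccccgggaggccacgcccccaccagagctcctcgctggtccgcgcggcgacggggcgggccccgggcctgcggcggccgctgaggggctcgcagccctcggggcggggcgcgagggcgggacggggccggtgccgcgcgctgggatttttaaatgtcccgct
Cdk2: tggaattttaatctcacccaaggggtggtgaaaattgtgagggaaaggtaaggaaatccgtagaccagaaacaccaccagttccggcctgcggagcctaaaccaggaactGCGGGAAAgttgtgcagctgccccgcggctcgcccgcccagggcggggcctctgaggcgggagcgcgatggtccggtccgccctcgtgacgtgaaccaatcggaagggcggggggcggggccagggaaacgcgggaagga
Cdc25a: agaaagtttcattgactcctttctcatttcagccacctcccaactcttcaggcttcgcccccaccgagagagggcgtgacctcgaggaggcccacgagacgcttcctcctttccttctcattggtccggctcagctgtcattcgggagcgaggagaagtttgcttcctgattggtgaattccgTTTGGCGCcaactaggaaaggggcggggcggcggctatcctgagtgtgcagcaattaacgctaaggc
Cdk4: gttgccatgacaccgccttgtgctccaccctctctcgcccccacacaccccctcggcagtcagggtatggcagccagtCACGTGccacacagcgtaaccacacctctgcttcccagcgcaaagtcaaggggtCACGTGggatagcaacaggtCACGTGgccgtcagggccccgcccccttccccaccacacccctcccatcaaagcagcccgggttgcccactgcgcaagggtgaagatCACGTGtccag
Of the members with a promoter, Cdc25a held TTTGGCGC starting 67 bases before the start, and Cdk2 held GCGGGAAA, the other strand of TTTCCCGC, starting 140 bases before it. Such letters stood in 1.87% of 32536 promoter windows of the same length. The Ccne1 window held none of these letters, which says only that they are not in this window. Cdk4 held CACGTG 4 times, starting 172, 118, 98 and 11 bases before the start, and the Cdk6 window, not printed, held it once, starting 220 bases before. Of all windows, 6.04% held it at least once. The search for CACGTG was added after the sequences had been read. These matches are descriptions of sequence, and no binding was measured.

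Depth ran from 8688604 to 41309134 reads per library, and the members held between 21 and 23984 reads each. Values are normalised read counts, that is reads divided by a size factor of the library. Kdm5a averaged 1754 in WT and 1140 in the Kdm5a KO, and 1990 in the Rb1 KO and 1344 in the DKO. Rb1 averaged 5633 in WT, 4452 in the Rb1 KO and 5485 in the DKO. These values cover whole genes and the deleted exons are not given in the sources used here, so the level of Rb1 does not check its label, and groups are called as labelled. Xist had no reads in the WT and Rb1 KO mixed libraries and averaged 3181 in the Kdm5a KO and 6871 in the DKO, so genotype at Kdm5a and sex of the cells cannot be told apart. Among markers of muscle, Myh3, an embryonic myosin, averaged 76998 in WT, 4531 in the Rb1 KO and 20800.4 in the DKO, whereas the fibroblast collagen Col1a1 averaged 153, 1588 and 263. Both markers were present in WT purified myotubes, with Myh3 at 159315 and Col1a1 at 799. The DKO purified pair stood apart, with a median absolute log2 difference between its libraries of 0.51, against 0.11 to 0.18 in the other groups. All results on purified DKO rest on that pair.

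Across the mixed cultures the members fell into 3 patterns. Ccne1, Ccne2, Cdk2 and Cdc25a rose in the Rb1 KO and were higher still in the DKO. Ccnd1, Ccnd2, Cdk4 and Cdk6 also rose in the Rb1 KO, but in the DKO each was below its Rb1 KO level, and Ccnd2 was below WT. Ccnd3 went the other way, falling in the Rb1 KO and lying between Rb1 KO and WT in the DKO.

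**Figure D1:**
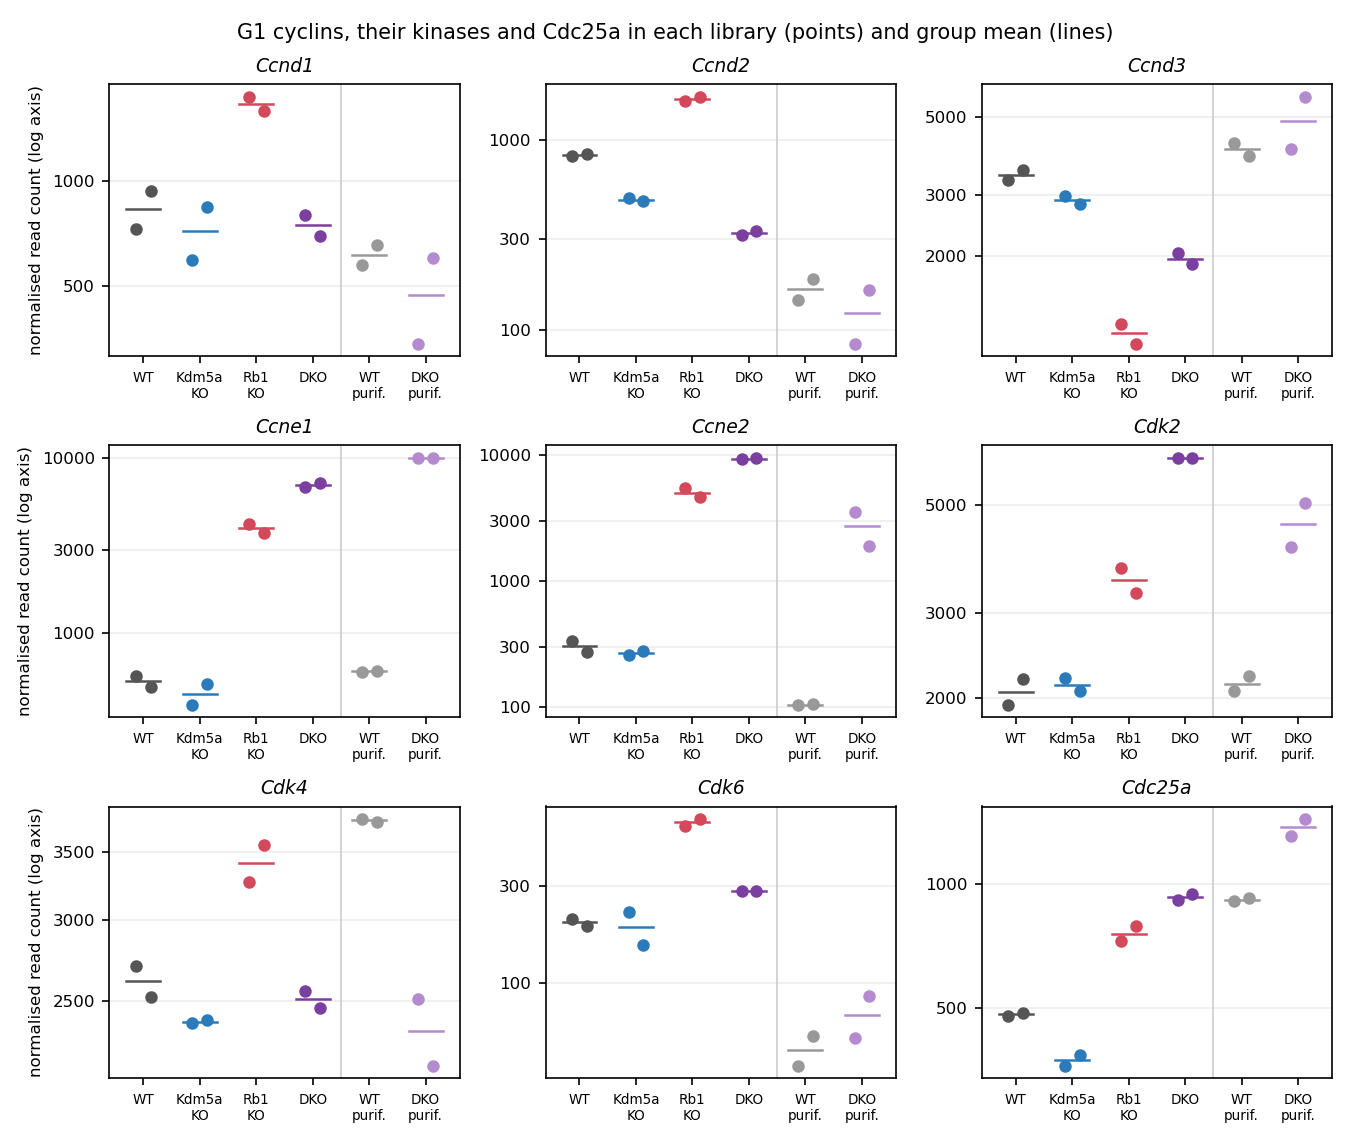
Normalised read count of each member in each library (points, log axis with a scale of its own in every panel), with the group mean as a line. The grey rule separates the mixed cultures on the left from purified myotubes on the right. These differ in RNA selection and in the 24 h after separation. The 2 Rb1 KO points of Ccnd2 stand at 1601 and 1689 and its DKO points at 318 and 332, while the DKO points of Ccne1 stand above those of every other mixed group.

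Counted over comparisons, 8 of the 9 members rose in the Rb1 KO against WT and 1 fell, where 36.8% of all 17199 genes tested rose and 34.3% fell (71.1% in all). The median log2 change of the members was 0.98, and that of all genes 0.03. In the DKO against WT, 5 rose and 2 fell, with 34.0% and 33.9% of all genes (67.9% together), and the medians were 0.51 and -0.00. Between the DKO and the Rb1 KO, 5 were higher and 4 lower in the DKO, with 23.1% and 24.2% of all genes (47.3% together) and medians of 0.30 and -0.01. In the Kdm5a KO against WT no member rose and 3 fell, with 13.4% and 13.8% of all genes (27.2% together) and medians of -0.22 and 0.01. That count changed with the library left out, as did that of all genes. Without WT replicate 2 the log2 change of Ccne2 was -0.33. Without Kdm5a KO replicate 2 those of Ccnd1 and Ccne1 were -0.47 and -0.45. Compared with the Kdm5a KO, the DKO had 5 members higher and 2 lower, with 33.7% and 33.4% of all genes (67.2% together) and medians of 0.60 and 0.01. These comparisons share libraries with one another, so their counts are not independent.

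**Figure D2:**
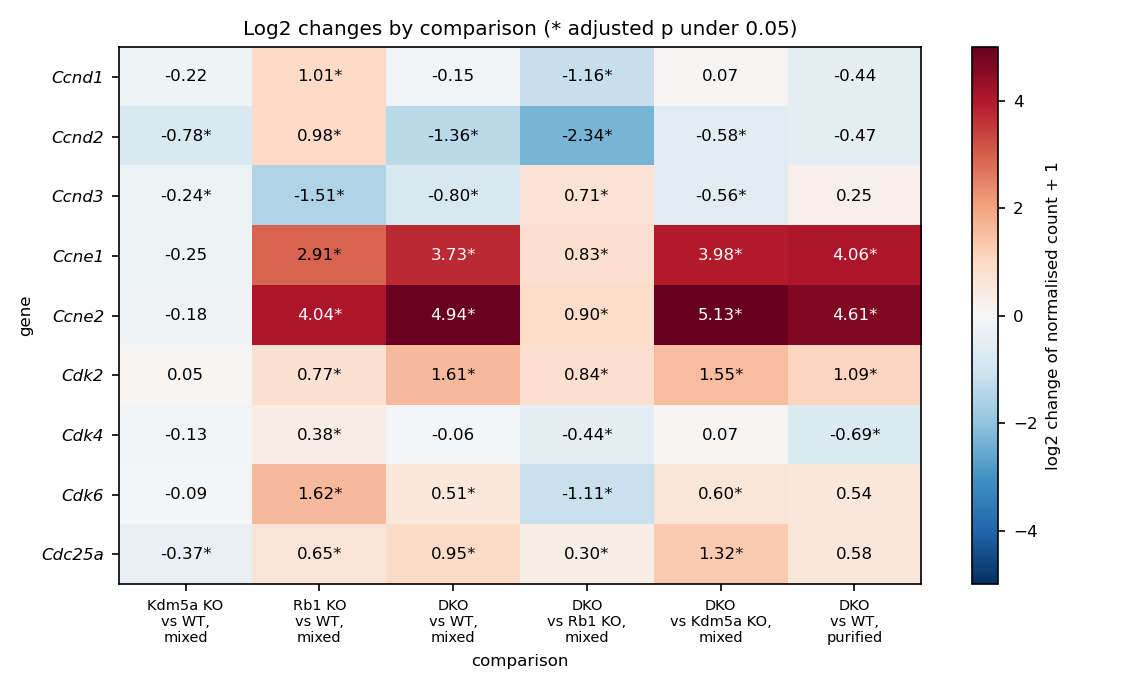
Log2 change of each member (rows) in 6 comparisons (columns), written in the cells, with red for higher and blue for lower. A star marks an adjusted p under 0.05. In the Rb1 KO every member carries a star, from -1.51 for Ccnd3 to 4.04 for Ccne2.

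Ccnd1, the D-type cyclin best known as a target of growth factor signalling, is on chromosome 7. Its values were 732 and 936 in WT, 596 and 846 in the Kdm5a KO, 1749 and 1589 in the Rb1 KO, and 799 and 698 in the DKO. The Rb1 KO libraries were above all the others, and those of the remaining 3 mixed groups overlapped. Ccnd1 rose 2.00-fold in the Rb1 KO (log2 change 1.01 ± 0.15 SE, adjusted p = 5.98e-05) and was lower in the DKO than in the Rb1 KO by 2.23-fold (adjusted p = 4.66e-05). Against WT, the DKO differed by -0.15 on the log2 scale with a 95% interval of -0.48 to 0.18 (adjusted p = 0.406).

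Ccnd2, a D-type cyclin on chromosome 6, changed most among the 3 when the Kdm5a-lacking groups were compared with their controls. WT libraries held 826 and 843, Kdm5a KO libraries 493 and 478, Rb1 KO libraries 1601 and 1689, and DKO libraries 318 and 332. No 2 of these groups overlapped, and the order ran from Rb1 KO through WT and Kdm5a KO to DKO. Ccnd2 rose 1.97-fold in the Rb1 KO (log2 change 0.98 ± 0.08, adjusted p = 3.39e-07) and was 5.07-fold lower in the DKO than in the Rb1 KO (log2 change -2.34 ± 0.08, adjusted p = 4.82e-10). It fell 1.72-fold in the Kdm5a KO (adjusted p = 3.59e-05) and 2.57-fold in the DKO against WT (adjusted p = 1.87e-08). Beside these values, the summed level of 10 fibroblast markers was 10469 to 10984 in WT, 8765 to 9072 in the Kdm5a KO, 77243 to 94064 in the Rb1 KO and 14119 to 14929 in the DKO. All 10 had reads in each of these groups, though Lum had only 1 and 2 in WT. All 10 rose in the Rb1 KO, and 8 were lower in the DKO than in the Rb1 KO. Against WT, 4 rose and 4 fell in the Kdm5a KO, and 8 rose and 0 fell in the DKO, while Ccnd2 fell in both. The part of these markers in the changes of Ccnd1 and Ccnd2 was not tested.

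Ccnd3, on chromosome 17, had 3309 and 3529 in WT and 2965 and 2820 in the Kdm5a KO. In the Rb1 KO it had 1280.1 and 1120, and in the DKO 2034 and 1895. The 4 groups did not overlap, and the Rb1 KO was the lowest. Ccnd3 fell 2.85-fold in the Rb1 KO (log2 change -1.51 ± 0.08, adjusted p = 1.64e-09) and 1.74-fold in the DKO (adjusted p = 8.72e-07), where it was 1.64-fold above the Rb1 KO (adjusted p = 6.88e-06). Its fall of 1.18-fold in the Kdm5a KO (adjusted p = 0.0314) was small and was lost with no filter on low values, with TMM scaling and without WT replicate 2 or either Kdm5a KO replicate, with adjusted p up to 0.167. Muscle markers moved alongside: the sum of 8 was 162458 to 166105 in WT, 160116 to 168387 in the Kdm5a KO, 29373 to 30313 in the Rb1 KO and 66949 to 68056 in the DKO. The sum hides opposite moves in the Kdm5a KO, where 6 of the 8 fell and Myh3 rose, with a median of -0.43 against 0.01 for all genes. All 8 fell in the Rb1 KO and all 8 were higher in the DKO than in the Rb1 KO, and their part in the level of Ccnd3 was not tested.

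To compare the D-type cyclins with one another, each value was divided by the exonic length of its gene in kilobases, and the share of each in the sum of the 3 was taken in each library. Ccnd3 made up 60.8 and 58.2% in WT and 65.4 and 58.2% in the Kdm5a KO. In the Rb1 KO its share was 21.2 and 19.8%, and Ccnd1 was the largest with 54.0 and 52.4%. The DKO lay nearer to WT, with Ccnd3 at 53.3 and 54.1% and Ccnd1 at 39.0 and 37.1%. Ccnd2 held 13.6% ± 0.825 (SD, n = 2) in WT, 9.67% ± 0.655 in the Kdm5a KO, 26.3% ± 2.18 in the Rb1 KO and 8.29% ± 0.757 in the DKO. Purified myotubes had the most Ccnd3, 75.6% ± 3.12 in WT and 83.4% ± 2.30 in the DKO, and little Ccnd2, 2.87% ± 0.584 and 1.91% ± 0.360. They also differ from the mixed cultures in RNA selection and in the 24 h after separation, which cannot be told apart here from cell makeup. The shares are descriptions with no test. With coding length in place of exonic length, Ccnd3 was again the largest of the 3 in every group other than the Rb1 KO, where Ccnd1 was the largest in library 1, at 39.6%, and Ccnd2 in library 2, at 38.4%.

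**Figure D3:**
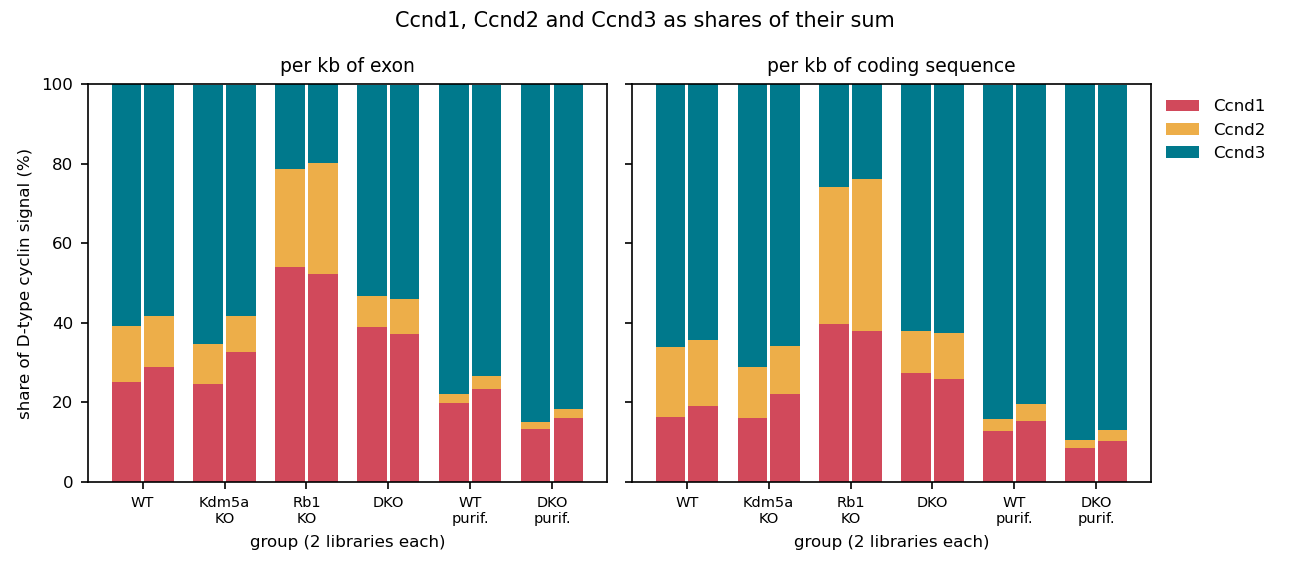
Share of Ccnd1, Ccnd2 and Ccnd3 in their summed normalised read count per exonic kilobase, in percent, with 1 bar for each of the 12 libraries. Ccnd3 is the largest part in all groups but the Rb1 KO, where its 2 libraries stand at 21.2 and 19.8%.

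Cdk4 and Cdk6 are the kinases that D-type cyclins activate. Cdk4, on chromosome 10, had 2706 and 2524 in WT, 2378 and 2393 in the Kdm5a KO, 3266 and 3554 in the Rb1 KO and 2558 and 2460.1 in the DKO. Only the Rb1 KO stood above WT, and WT and DKO overlapped. Cdk4 rose 1.30-fold in the Rb1 KO (log2 change 0.38 ± 0.06, adjusted p = 0.000126) and was 1.36-fold lower in the DKO than in the Rb1 KO (adjusted p = 9.03e-05). The DKO differed from WT by -0.06, with a 95% interval of -0.20 to 0.08 (adjusted p = 0.421).

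Cdk6, on chromosome 5, was the lowest member per exonic length in every group. It had 205 and 191 in WT, 223 and 154 in the Kdm5a KO, 586 and 637 in the Rb1 KO and 282 and 281 in the DKO. WT and Kdm5a KO overlapped, DKO stood above both, and the Rb1 KO stood above the DKO. The rise in the Rb1 KO was 3.09-fold (log2 change 1.62 ± 0.17, adjusted p = 1.57e-06), and the DKO was 2.17-fold below the Rb1 KO (adjusted p = 0.000127). Its rise of 1.43-fold in the DKO against WT (adjusted p = 0.0154) was lost without WT replicate 2 or either DKO replicate, with adjusted p up to 0.0687.

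The E-type cyclins, which activate Cdk2 at the entry into DNA synthesis, rose the most. Ccne1, on chromosome 7, had 568 and 496 in WT, 389 and 513 in the Kdm5a KO, 4214 and 3764 in the Rb1 KO and 6886 and 7263 in the DKO. WT and Kdm5a KO overlapped, and both groups without Rb1 lay far above them, with the DKO above the Rb1 KO. Ccne1 rose 7.50-fold in the Rb1 KO (log2 change 2.91 ± 0.11, adjusted p = 1.92e-10) and 13.3-fold in the DKO (adjusted p = 3.96e-11). Between those groups the DKO was 1.77-fold higher (adjusted p = 7.06e-05).

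Ccne2, on chromosome 4, had 336 and 274 in WT, 258 and 277 in the Kdm5a KO, 5435 and 4623 in the Rb1 KO and 9252 and 9475 in the DKO. The order of the groups was that of Ccne1. Ccne2 rose 16.5-fold in the Rb1 KO (log2 change 4.04 ± 0.10, adjusted p = 3.83e-12) and 30.7-fold in the DKO (log2 change 4.94 ± 0.10, adjusted p = 2.00e-12), which exceeded the Rb1 KO 1.86-fold (adjusted p = 1.24e-05). Per exonic kilobase, Ccne1 exceeded Ccne2 in WT, at a mean of 200 against 87.3, while the DKO had 2658 of Ccne1 and 2679 of Ccne2. Per coding kilobase, WT had 400 of Ccne1 and 252 of Ccne2, and the DKO 5323 and 7726, so the balance in the DKO depends on the length used. The exons of Ccne2 share 609 bases with Ints8 on the other strand, and the sources used here do not say whether reads were counted by strand. Ints8, a subunit of the Integrator complex, rose by 1.60 on the log2 scale in the Rb1 KO and by 2.41 in the DKO, so reads of the pair cannot be fully told apart.

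Cdk2, the kinase of the E-type cyclins, is on chromosome 10. Its values were 1937 and 2188 in WT, 2199 and 2067 in the Kdm5a KO, 3717 and 3296 in the Rb1 KO and 6265 and 6267 in the DKO. Both groups without Rb1 stood apart from the other pair and from each other. It rose 1.70-fold in the Rb1 KO (log2 change 0.77 ± 0.07, adjusted p = 9.34e-07) and 3.04-fold in the DKO (adjusted p = 1.24e-09), and the DKO was 1.79-fold above the Rb1 KO (adjusted p = 1.40e-06).

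Cdc25a, on chromosome 9, removes the inhibitory phosphates from Cdk2. It had 477 and 486 in WT, 361 and 384 in the Kdm5a KO, 728 and 790.2 in the Rb1 KO and 916 and 945 in the DKO, and the 4 groups did not overlap. Cdc25a rose 1.58-fold in the Rb1 KO (log2 change 0.65 ± 0.09, adjusted p = 3.23e-05) and 1.93-fold in the DKO (adjusted p = 1.19e-06), and fell 1.29-fold in the Kdm5a KO (adjusted p = 0.0102). That fall was lost without Kdm5a KO replicate 1 (highest adjusted p 0.0656). The 1.23-fold excess of the DKO over the Rb1 KO (adjusted p = 0.0187) was lost without Rb1 KO replicate 1 or either DKO replicate, with adjusted p up to 0.129.

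The sum of 8 markers of cycling cells was also higher in the groups without Rb1. It was 1022 to 1109 in WT, 1308 to 1489 in the Kdm5a KO, 15765 to 16860 in the Rb1 KO and 32444 to 32965 in the DKO. In the Kdm5a KO against WT, 4 of the 8 rose and 0 fell, with a median of 0.65 against 0.01 for all genes. There Cdc25a fell, and Ccne1, Ccne2 and Cdk2 did not pass. All 8 rose in the Rb1 KO, and 5 of them were higher in the DKO than in the Rb1 KO. Mki67, a protein of proliferating cells, averaged 32.3 in WT, 2428 in the Rb1 KO and 5919 in the DKO. The part of cycling cells in the values of Ccne1, Ccne2, Cdk2 and Cdc25a was not tested.

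Whether the difference between groups with and without Kdm5a depended on Rb1 was asked with an interaction term over the 8 mixed libraries. All 9 members passed, 5 with a positive and 4 with a negative term, where 18.8% and 19.5% of all genes did (38.3% together), and the median was 0.67 for the members and -0.02 for all genes. On the background without Rb1, the DKO had more of the E-type cyclins, Cdk2, Cdc25a and Ccnd3 than the step from WT to Kdm5a KO would give. The terms were 1.08 ± 0.16 for Ccne1 (adjusted p = 0.000223), 1.08 ± 0.14 for Ccne2 (adjusted p = 8.04e-05), 0.79 ± 0.10 for Cdk2 (adjusted p = 7.93e-05), 0.67 ± 0.13 for Cdc25a (adjusted p = 0.00148) and 0.95 ± 0.11 for Ccnd3 (adjusted p = 1.90e-05). Cdc25a and Ccnd3 changed sign between backgrounds: each fell in the Kdm5a KO against WT and was higher in the DKO than in the Rb1 KO. Both falls, and the excess of Cdc25a in the DKO, were lost in some alternatives, as given above. Estimates for Ccne1 (-0.25 and 0.83) and Ccne2 (-0.18 and 0.90) also differed in sign between backgrounds, but did not pass in the Kdm5a KO.

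The other 4 members had less than that step would give. Ccnd2 had the most negative term, -1.56 ± 0.12 (adjusted p = 8.44e-07), followed by Cdk6 with -1.02 ± 0.23 (adjusted p = 0.00417) and Ccnd1 with -0.94 ± 0.22 (adjusted p = 0.00432). Ccnd2 was lower without Kdm5a on either background, with log2 changes of -0.78 in the presence of Rb1 and -2.34 in its absence, whereas for Ccnd1 and Cdk6 the Kdm5a KO overlapped WT. Cdk4 had the term closest to 0, -0.31 ± 0.09 (adjusted p = 0.0154), and lost it without Rb1 KO replicate 2 or DKO replicate 2, with adjusted p up to 0.0702. Cell type markers had interaction terms too: all 8 muscle markers had a positive one that passed (median 1.70), 9 of 10 fibroblast markers a negative one (median -2.04), and 3 of 8 cycling markers a positive one (median 0.17). Their part in the terms of the members was not tested.

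**Figure D4:**
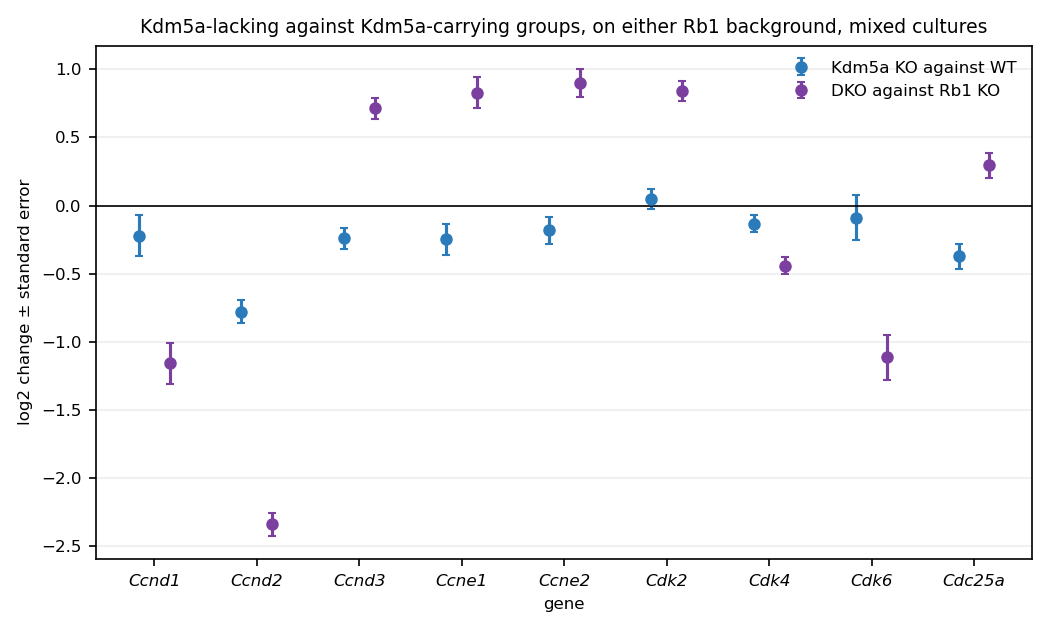
Log2 change of each member between groups lacking and carrying Kdm5a, for Kdm5a KO against WT and for DKO against Rb1 KO, with bars for the SE. Ccnd2 moves from -0.78 to -2.34 between the backgrounds and Ccnd3 from -0.24 to 0.71.

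Purified myotubes allowed WT and DKO to be compared after separation of the cells by size. As in the mixed cultures, these groups also differed in Xist, and the part of sex was not tested. Of the 9 members, 3 rose and 1 fell in DKO myotubes, where 21.0% and 18.6% of the 16670 genes tested did (39.6% together), and the medians were 0.54 and -0.05. The number of members that passed depended on the library left out, as did the number of all genes that passed. Ccne1 had 599 and 609.98 in WT myotubes and 10084 and 10073 in DKO myotubes, and Ccne2 had 104 and 106 against 3557 and 1883. Neither gene's groups came near each other, although the DKO libraries of Ccne2 differed widely. Ccne1 rose 16.7-fold (log2 change 4.06 ± 0.18, adjusted p = 0.000849) and Ccne2 25.9-fold (log2 change 4.61 ± 0.35, adjusted p = 0.00150).

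Cdk2 had 2065 and 2219 in WT myotubes and 4100 and 5048 in DKO myotubes. It rose 2.14-fold (adjusted p = 0.0130), a call lost without either WT replicate, with adjusted p up to 0.229. Cdc25a had 909.8 and 927 in WT and 1311 and 1445 in the DKO, with no overlap, and its log2 change of 0.58 had a 95% interval of 0.11 to 1.06 (adjusted p = 0.0591), which passed with TMM scaling and without either DKO replicate. Cycling markers were again higher in the DKO, with a sum of 1396 to 1580 in WT myotubes, where Ccnb1 had no reads, and 32330 to 43486 in DKO myotubes, and all 8 rose. Their part in these values was not tested.

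Cdk4 had 3771 and 3746 in WT myotubes and 2513 and 2158 in DKO myotubes, a fall of 1.61-fold (log2 change -0.69 ± 0.19, adjusted p = 0.0393). The call was lost in edgeR, in DESeq2, with a replicate block and without either WT replicate, with adjusted p up to 0.396. The D-type cyclins overlapped between the groups. Ccnd1 had 575 and 657 in WT and 342 and 604 in the DKO, and Ccnd2 had 143 and 185 against 84.6 and 162. Ccnd3 had 4225 and 3855 in WT and 4048 and 5713 in the DKO, with a log2 difference of 0.25 and a 95% interval of -0.36 to 0.86 (adjusted p = 0.431). Cdk6, with 39.1 and 54.7 against 53.7 and 85.8, also overlapped, and its interval ran from -0.48 to 1.57. The log2 changes of Ccnd1 and Ccnd2 passed as lower without DKO replicate 2, and that of Ccnd3 passed as higher without DKO replicate 1.

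The DKO difference itself was then compared between purified myotubes and mixed cultures, which differ in RNA selection, cell makeup and the 24 h after separation. It differed for 2 members, 1 in each direction, where 11.6% of the 17273 genes tested had a positive and 13.2% a negative term (24.8% together), and the medians were -0.29 and -0.06. The count of members changed with the library left out, as did that of all genes. The fit over all 12 libraries shares its estimate of the spread between groups, while the DKO purified libraries differed most from each other. P-values of this term may therefore understate the spread of that pair. Ccnd3 had a term of 1.05 ± 0.22 (adjusted p = 0.00639), where the SE of the myotube difference alone was 0.24. It fell by 0.80 on the log2 scale in mixed cultures and had a log2 difference of 0.25 in myotubes. Cdk4 had a term of -0.63 ± 0.15 (adjusted p = 0.0124), with -0.06 in mixed cultures and -0.69 in myotubes, and lost it without DKO mixed replicate 1 (highest adjusted p 0.0595). For Ccne1 the term was 0.32 with a 95% interval of -0.11 to 0.76, and for Ccne2 it was -0.33 with an interval of -1.09 to 0.43. Fibroblast markers summed to 15057 to 18558 in WT myotubes, where Lum had no reads, and to 24494 to 33178 in DKO myotubes. Of the 8 tested, 4 rose and 2, Pdgfrb and Col3a1, fell, and Fn1 alone averaged 6309 in WT and 20061 in the DKO. Muscle markers summed to 403038 to 404529 in WT and 174054 to 195021 in the DKO, but only 3 of 8 fell, Myh3, Des and Actn2, while Ckm rose and 4 did not pass. The part of these cells in the terms was not tested.

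**Figure D5:**
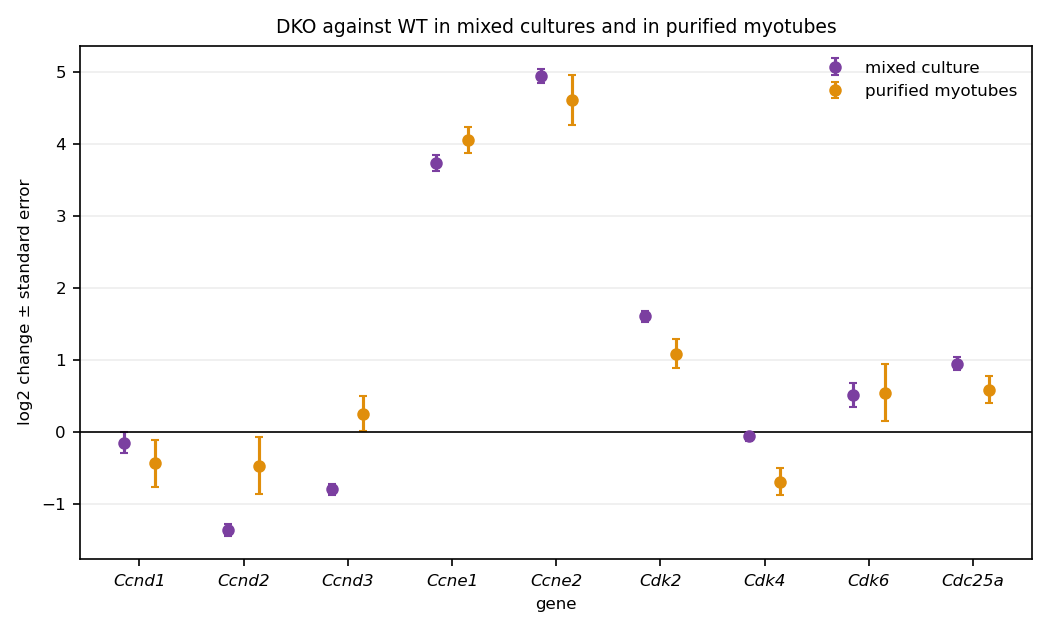
Log2 change of each member in the DKO against WT, in mixed cultures and in purified myotubes, with bars for the SE. Ccne1 and Ccne2 lie between 3.73 and 4.94 in both, and Ccnd3 moves from -0.80 to 0.25.

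Over all 6 groups, the level of each member gave an order. It can be read only with the differences in RNA selection and in the 24 h after separation in mind. Ccne1 was highest in DKO myotubes, then in DKO and Rb1 KO mixed cultures, with no overlap between these neighbours. Ccne2 and Cdk2 were highest in the DKO mixed cultures, and Ccnd1, Ccnd2 and Cdk6 in the Rb1 KO. Ccnd3 was highest in the purified groups, which overlapped, and Cdk4 in WT myotubes. The levels of Ccnd2 and Cdk6 were lowest in the purified groups, which overlapped each other for both genes.

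The partners of these genes were counted in 7 lists, to be read against the 36.8% of all genes that rose and 34.3% that fell in the Rb1 KO, and the 23.1% higher and 24.2% lower in the DKO than in the Rb1 KO. Of the CDK inhibitors, 6 of 7 had a row, and 3 rose and 2 fell in the Rb1 KO, with a list median of 0.20 against 0.03 for all genes. Cdkn1c, which encodes the inhibitor p57, averaged 32913 in WT and 4663 in the Rb1 KO, and fell by 2.82 on the log2 scale (adjusted p = 8.85e-14). In the DKO it averaged 19910.1, higher than the Rb1 KO by 2.09 (adjusted p = 7.11e-12). Cdkn1a, the inhibitor p21 that MyoD is known to induce, fell by 0.55 in the Rb1 KO, with means of 42301 and 28810.4. Cdkn2c, an inhibitor of Cdk4 and Cdk6, rose by 2.07 on the log2 scale, and Cdkn2a, whose locus encodes p16 and p19ARF, rose by 1.14. Relative to the Rb1 KO, 3 inhibitors were higher in the DKO and 2 lower, and the latter included Cdkn2a with a log2 change of -0.60.

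Among the enzymes that phosphorylate CDKs or remove those phosphates, 3 of 7 rose and 3 fell in the Rb1 KO, near the shares of 36.8% and 34.3% over all genes, with a median of 0.15 against 0.03. Wee1, which places the inhibitory phosphate, rose by 1.89 and the phosphatase Cdc25c by 5.52 on the log2 scale, from a mean of 3.52. Cdc25b changed by -0.49 and Cdk7, the CDK-activating kinase, by -0.56, and both passed. From Rb1 KO to DKO, 1 was higher and 2 lower. Cdc25b was the higher one, by 0.89, and in DKO myotubes it was 9.95-fold above WT (adjusted p = 0.00268).

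Of 14 genes for turnover of cyclins and inhibitors, 7 rose and 4 fell in the Rb1 KO, where 71.1% of all genes passed, and the median was 0.44. Fbxw7, the ubiquitin ligase subunit that recognises cyclin E, averaged 5401 in WT and 1819 in the Rb1 KO, with a log2 change of -1.57 (adjusted p = 3.24e-10), and in DKO myotubes 563 against 6847 in WT. Skp2, which targets the inhibitor p27, rose by 1.54, Cul3 rose by 0.63, and Skp1a changed by -1.63 and passed. In the DKO against the Rb1 KO, 4 of the 14 were higher and 3 lower.

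In the Rb1 KO against WT, 8 of 13 pocket proteins, E2F and DP factors rose and 3 fell, Rb1 among them, where 36.8% and 34.3% of all genes did, and the median was 1.05. Tfdp1, the partner of E2F factors, rose by 2.20 on the log2 scale (adjusted p = 1.17e-10), the pocket protein Rbl1 by 2.73, E2f8 by 1.30 and E2f3 by 1.05. The DKO exceeded the Rb1 KO for 3 of them and was below it for 3. The later cyclins with Cdk1 rose in 5 of 5 cases, with a list median of 4.25. Ccna2, the cyclin of S phase, rose 14.5-fold, Ccnf 19.2-fold, Ccnb2 16.8-fold and Cdk1, the mitotic kinase, 36.6-fold in the Rb1 KO. In the DKO, 4 of these 5 were higher than in the Rb1 KO.

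Inducers of G1 cyclins rose in 10 of 13 cases in the Rb1 KO and fell in 2, against 36.8% and 34.3% of all genes, with a median of 0.81. Hmga2, a chromatin protein of embryonic cells, averaged 102 in WT and 1867 in the Rb1 KO, and Ets1 and Rela rose by 2.22 and 1.82 on the log2 scale. Stat3 fell by 0.83. In the DKO against the Rb1 KO, 1 inducer was higher and 4 lower, against 23.1% and 24.2% of all genes, and Hmga2 was among the lower with a log2 change of -1.61 (adjusted p = 7.58e-07). Of 12 other cyclins and CDKs, 3 rose and 7 fell in the Rb1 KO, against 36.8% and 34.3% of all genes, with a median of -0.23. Ccny changed by -0.89 and Ccng2 by -1.30, Cdk14 rose by 0.94, and all passed. Cdk8 passed with -0.76, but its mean of 648329 in WT mixed cultures against 2477 in WT myotubes makes its level uncertain. The members' inducers and partners were listed for their known roles, and none of these counts was tested as a set.

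Over the 12 libraries, the likeness between members followed the patterns above only in part. It is a description without a test, since the libraries share groups, scaling and RNA selection. On the scale of log2(value + 1), Pearson's r was 0.93 between Ccne1 and Cdk2, 0.90 between Ccne1 and Ccne2, 0.89 between Ccnd1 and Ccnd2 and 0.88 between Ccnd2 and Cdk6. Cdk4 was less like the members of its pattern, with r = 0.35 for Ccnd1, 0.15 for Ccnd2 and -0.06 for Cdk6. Cdc25a had r = 0.78 with Ccne1, 0.67 with Cdk2 and 0.47 with Ccne2. Ccnd3 ran opposite to Cdk6, with r = -0.88, and to Ccnd1, with r = -0.79. Among all genes with a symbol and a mean of at least 100, those most like Ccne1 were Ccnf (r = 0.99), Rtel1 and Selenoh, and those most like Ccne2 were Elf2 (r = 0.998), Plk4 and Tyms. Ccnd3 was most like Tpm2 (r = 0.99), a tropomyosin, Mettl22 and Cacng1. Ccnd1 was most like Stt3a (r = 0.96), Reck and Dab2, and Ccnd2 most like Plod2 (r = 0.98), Nbas and Etv3. For Cdk2 the nearest were Smyd4 (r = 0.98), Fancd2 and St6galnac2, and for Cdk4 Rrbp1 (r = 0.98), Ccn4 and Esyt2. Nup98 (r = 0.99), Ttbk2 and Pan3 were nearest to Cdk6, and Sct (r = 0.99), Anapc15 and Nol9 to Cdc25a.

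Other members also share exon bases with a gene on the opposite strand, which limits how far their levels can be assigned. Cdk4 shares 641 bases with Tspan31, which fell by 0.59 on the log2 scale in the Rb1 KO where Cdk4 rose. In mixed cultures Tspan31 averaged 1768 in WT and 921 in the DKO, where the Cdk4 values overlapped. In myotubes it averaged 1809 in WT and 1156 in the DKO, and Cdk4 was lower there too. The part of Tspan31 reads in the values of Cdk4 was not tested. Ccnd1 shares 1100 bases with LTO1, whose log2 change in the Rb1 KO was 0.16 (adjusted p = 0.394). LTO1 averaged 697 in the Rb1 KO and 451 in the DKO, where Ccnd1 was lower too. In myotubes it averaged 1372 in WT and 530 in the DKO, where the Ccnd1 values overlapped. The part of LTO1 reads in the values of Ccnd1 was not tested. Ccnd3 shares 361 bases with Bysl, which fell by 0.95 in the Rb1 KO. Cdk2 shares 34 bases with Pmel, and Ccnd2 and Cdk6 overlap antisense genes that have no value here. Ccne1 and Cdc25a have no such overlap in GENCODE M21.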

How the data were processed

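RNA was sequenced in 12 libraries of MEF-derived muscle cultures. The submitters' processing notes name TopHat 1.2.0, an aligner, DESeq without a version, and the build mm9. Read counter, use of strand and annotation are not given in the sources here. The values the authors deposited are a signal per gene and library, a read count divided by a size factor, and whole reads were recovered from them. Symbols, chromosomes and exon overlaps came from GENCODE M21, so no mm9 coordinates are given, and promoters from RefSeq on GRCm38.p6. Of the 36229 identifiers 30983 (85.5%) had a symbol, and the rest held at most 2.83% of reads.

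Values were tested as log2(value + 1) with limma 3.58.1 and its intensity trend. Genes below a mean of 10 over the fitted libraries were left out. Tests were two-sided, and p-values were adjusted by Benjamini-Hochberg over all genes of the fit, with 0.05 as the threshold. The 8 mixed libraries shared a fit, the 4 purified libraries had their own, and all 12 entered the purified minus mixed term. Folds are ratios of group means of the values, and log2 changes come from the fit. The fit was tested on simulated data.

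Alternatives were a pseudocount of 8, no filter, TMM scaling, edgeR 4.0.16 and DESeq2 1.42.0 on the recovered reads, a replicate block, fits of only the groups compared, and leaving out each library. Named genes are the members, checks, up to 4 genes of each pathway list with the smallest p in the Rb1 KO, and the 3 genes most like each member. Members and lists were chosen with earlier results of these data known. The members' protein sequences were not analysed here.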

Additional observations from a re-analysis of the deposited data

Results flagged for a closer look

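The members below were singled out because the difference between 2 groups was itself different in another setting, by a test of that difference in limma.

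The step from Kdm5a-carrying to Kdm5a-lacking mixed cultures differed between Rb1 backgrounds for all 9 members, where it did for 38.3% of all genes. The log2 terms were 1.08 for Ccne1, 1.08 for Ccne2, 0.95 for Ccnd3, 0.79 for Cdk2 and 0.67 for Cdc25a. They were -1.56 for Ccnd2, -1.02 for Cdk6, -0.94 for Ccnd1 and -0.31 for Cdk4. The call for Cdk4 was lost without Rb1 KO replicate 2 or DKO replicate 2. Xist separates the groups in the same way as Kdm5a genotype, and the part of sex was not tested. All 8 muscle markers had a positive term (median 1.70) and 9 of 10 fibroblast markers a negative one (median -2.04), and their part was not tested either.

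The DKO difference was not the same in purified myotubes and mixed cultures for Ccnd3, with a term of 1.05, and for Cdk4, with a term of -0.63. Of all genes, 24.8% passed for this term, and the call for Cdk4 was lost without DKO mixed replicate 1. Purified and mixed libraries differ in RNA selection, amount of RNA (1.5 and 1.7 µg), read length (36 and 40 bases) and cell makeup. Purified myotubes were also left for 24 h after separation. These differences cannot be told apart.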

How the results depend on the processing

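Of 72 results on members, 46 kept their direction and their side of the threshold under every alternative run, and of the 50 that passed, 41 passed in all of them and none changed sign. Over 846 alternative values, 23 lost and 18 gained a call, and the cause was not tested. Changes of sign occurred only for differences that had not passed. Depth limits Cdk6 most, with 21 reads in WT purified replicate 1.

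Leaving out 1 library at a time, the genes that passed ranged from 3057 to 4251 in the Kdm5a KO (1 to 4 members), from 1983 to 11574 in purified myotubes (2 to 7 members) and from 2471 to 8989 for the purified minus mixed term (1 to 5 members). In the same runs the log2 change of Ccnd1 ranged from -0.474 to 0.0320 in the Kdm5a KO, from -0.325 to 0.0285 in the DKO against WT, from -0.18 to 0.33 in the DKO against the Kdm5a KO and from -0.70 to 0.12 for the purified minus mixed term. Cdk2 ranged from -0.0377 to 0.138 and Cdk6 from -0.36 to 0.18 in the Kdm5a KO. The purified minus mixed term ranged from -0.79 to 0.13 for Ccne2 and from -0.30 to 0.37 for Cdk6. A pseudocount of 8 gave -0.0098 for that term of Cdk6, and DESeq2 called 4 members in it.

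Divided by coding length, in the order WT, Kdm5a KO, Rb1 KO, DKO, WT myotubes and DKO myotubes, the share of Ccnd1 was 17.8, 19.1, 38.7, 26.6, 14.1 and 9.40%. That of Ccnd2 was 17.1, 12.3, 36.5, 11.1, 3.60 and 2.33%, and that of Ccnd3 65.2, 68.6, 24.8, 62.3, 82.3 and 88.3%.

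Libraries with the same replicate number did not deviate together between groups, with correlations from -0.047 to 0.052. These values show no sign of pairing by number, but cannot exclude it, since noise between libraries can hide it. With a replicate block, 7629 genes instead of 6598 passed in purified myotubes and 3 members instead of 4, since Cdk4 had an adjusted p of 0.0795. In the 6 comparisons within mixed cultures and the purified minus mixed term, the number of members called was the same with the block.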
